A study of Mus musculus with 8 samples.

Results

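Among the regions whose 5-hydroxymethylcytosine (5hmC) signal the authors called different after deletion of Ogt in mouse embryonic stem cells, 1019 lay in noncoding genes and in no protein-coding gene. They were chosen by position alone: the midpoint of an autosomal region had to fall in the span of a RefSeq gene of a biotype other than protein-coding (mouse build GRCm38.p6, the same chromosomes as mm10) and in no protein-coding span. They made up 1019 of the 12520 regions on the 19 autosomes, and of 12594 in both lists. Of the 1019 noncoding-only regions, 884 lay in genes for long noncoding RNA (lncRNA) alone, 119 in pseudogenes alone, 1 in a small RNA gene, 10 in other noncoding loci, and 5 in genes of more than 1 of these kinds.

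The profiled cells carried floxed alleles of Ogt (Ogt fl/fl) and were grown on feeder cells. They were either treated with 4-hydroxytamoxifen for 6 days and sorted for live YFP-positive cells (Ogt iKO), or kept without it as controls. The labels name CD90.2 as the surface marker used to pick out the stem cells and CD326 as the one used to remove feeder cells. CD326 (EpCAM) is itself commonly found on mouse embryonic stem cells, and the roles of these markers in the sort could not be checked. Each condition gave 2 CMS-IP libraries and 2 input libraries, 8 samples in 4 groups. The labels do not name the source of the recombinase or the number of clones, and only the treated cells were sorted on the YFP reporter, so deletion, drug and sort cannot be told apart. The data are 2 deposited lists of regions, with higher and with lower CMS-IP signal in Ogt iKO than in control cells, called higher and lower regions here. The direction is known from the list names alone, which read OgtiTKO where the sample titles read Ogt_iKO. Both were taken to mean the same cells. The lists hold positions and no value per sample, so the depth, the size of each change and the replicate error are unknown. The cell type could not be checked against marker genes for the same reason. Every interval and test below is over regions, which are not biological replicates, and covers counting error only.

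OGT is the X-linked enzyme that attaches O-linked N-acetylglucosamine to nuclear and cytoplasmic proteins, and it binds the TET dioxygenases. TET enzymes oxidise 5-methylcytosine, which in mammals lies mostly at CG dinucleotides, to 5hmC. CMS-IP converts 5hmC to cytosine 5-methylenesulphonate with bisulfite and recovers the fragments with an antibody. LncRNA genes are transcribed into long RNAs without a known protein product, and some regulate a neighbouring gene, while pseudogenes are disabled copies of genes. In embryonic stem cells 5hmC is found in gene bodies, at enhancers and near promoters of low to moderate CG content.

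A few regions covered the start of a noncoding gene, and those starts are shown because their sequence can be read beside the direction of change. They are a small part: of the 712 regions in a gene with a known start, 25 (3.51%) overlapped a promoter window of that gene. The sequences of the regions themselves were not analysed here. RefSeq promoter windows run from 250 bases before to 50 bases after a transcript start, and 9291 autosomal noncoding genes had at least 1 in the table used, which holds windows of 18 of the 19 autosomes. Higher regions covered 5 such windows whole, and the first 4 windows below are those of them whose region also had its midpoint in the same gene. Next comes the 1 window that lay wholly inside a lower region (Gm36129). It is followed by a window of Gm32224, in which a lower region covered 104 bases, although lower regions covered more of some other windows. Each is printed 5′ to 3′ on the strand of the gene (GRCm38.p6), with every CG dinucleotide in capitals.
Gm32705 (chr6:98507623-98507922, + strand): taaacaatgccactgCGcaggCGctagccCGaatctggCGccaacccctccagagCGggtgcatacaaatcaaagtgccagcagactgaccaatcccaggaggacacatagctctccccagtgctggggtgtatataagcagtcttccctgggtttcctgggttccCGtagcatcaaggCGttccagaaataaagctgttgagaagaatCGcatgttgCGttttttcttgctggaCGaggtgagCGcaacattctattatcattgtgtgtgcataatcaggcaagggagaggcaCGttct
4930555A03Rik (chr3:151293912-151294211, + strand): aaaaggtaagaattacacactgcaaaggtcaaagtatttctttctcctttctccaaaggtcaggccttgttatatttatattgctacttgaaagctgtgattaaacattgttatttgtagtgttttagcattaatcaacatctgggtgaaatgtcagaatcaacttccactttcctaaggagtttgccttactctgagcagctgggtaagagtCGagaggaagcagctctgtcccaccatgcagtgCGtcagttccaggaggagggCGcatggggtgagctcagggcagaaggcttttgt
Gm52536 (chr2:169079237-169079536, - strand): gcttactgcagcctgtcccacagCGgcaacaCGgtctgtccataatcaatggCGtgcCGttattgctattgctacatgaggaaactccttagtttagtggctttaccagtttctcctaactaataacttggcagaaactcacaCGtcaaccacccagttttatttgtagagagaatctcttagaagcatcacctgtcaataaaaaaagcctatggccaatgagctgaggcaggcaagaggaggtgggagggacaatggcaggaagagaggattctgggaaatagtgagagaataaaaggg
Gm6329 (chr8:45165096-45165395, - strand): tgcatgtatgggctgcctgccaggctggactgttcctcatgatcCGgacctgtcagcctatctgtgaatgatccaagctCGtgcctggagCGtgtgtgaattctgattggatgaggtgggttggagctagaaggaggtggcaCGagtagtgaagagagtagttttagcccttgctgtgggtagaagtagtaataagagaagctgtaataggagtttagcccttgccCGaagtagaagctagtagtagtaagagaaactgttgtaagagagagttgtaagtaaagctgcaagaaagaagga
Gm36129 (chr12:24689694-24689993, + strand): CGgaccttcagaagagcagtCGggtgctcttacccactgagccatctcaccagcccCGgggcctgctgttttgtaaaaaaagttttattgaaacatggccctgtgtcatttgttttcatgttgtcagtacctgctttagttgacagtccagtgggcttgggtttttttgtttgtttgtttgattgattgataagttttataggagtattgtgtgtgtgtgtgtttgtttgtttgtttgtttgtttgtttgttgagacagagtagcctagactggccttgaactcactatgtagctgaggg
Gm32224 (chr14:25127794-25128093, + strand): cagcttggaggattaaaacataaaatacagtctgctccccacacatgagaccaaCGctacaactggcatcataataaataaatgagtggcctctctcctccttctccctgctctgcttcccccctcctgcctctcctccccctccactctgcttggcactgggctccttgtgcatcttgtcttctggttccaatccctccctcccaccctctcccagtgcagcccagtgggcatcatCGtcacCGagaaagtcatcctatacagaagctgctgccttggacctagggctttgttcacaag

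The number of CG dinucleotides was 12 in Gm32705, 5 each in Gm52536 and Gm6329, and 3 each in 4930555A03Rik, Gm36129 and Gm32224. Windows not printed, of Gm31633 (246 bases covered, 9 CG dinucleotides), Gm32013 (220 bases, 6) and Gm52114 (216 bases, 6), were covered by lower regions to a greater length than that of Gm32224. The printed lower windows are therefore no measure of CG content at lower regions. The motif searched was CG, which reads the same on both strands. Over all 11311 noncoding windows the median was 4 (interquartile range 2 to 8), and 12.3% of them (1393) held 15 or more. Higher regions overlapped 24 windows of 20 genes, with a median of 6 CG dinucleotides (4 to 8), and lower regions overlapped 8 windows of 6 genes, with a median of 4.5 (3 to 6). No window overlapped by either kind of region held 15 or more. These 32 windows include alternative starts of the same gene, which share most of their sequence, and the difference from all windows was not tested.

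Noncoding-only regions were mostly higher in Ogt iKO cells, in nearly the proportion of the autosomes at large. The higher list held 679 of the 1019 and the lower list 340, so 66.6% were higher (95% Wilson interval 63.7 to 69.5%), against 68.4% of all 12520 autosomal regions. The kinds of noncoding gene differed from each other. Pseudogene regions were higher in 78.2% of cases (93 of 119, 69.9 to 84.6%) and lncRNA regions in 64.9% (574 of 884, 61.7 to 68.0%). The odds of being higher were 0.518 times as large in lncRNA genes as in pseudogenes (95% interval 0.315 to 0.828, two-sided Fisher's exact test, p = 0.00373, Benjamini-Hochberg adjusted over 3 contrasts, adjusted p = 0.0112). The difference was past the threshold of 0.05 in 5 of 7 alternative settings. It missed it with protein-coding spans extended by 10 kb (0.532, Fisher's exact test, adjusted p = 0.0511) and with numbered gene models left out (0.577, adjusted p = 0.552).

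**Figure D1:**
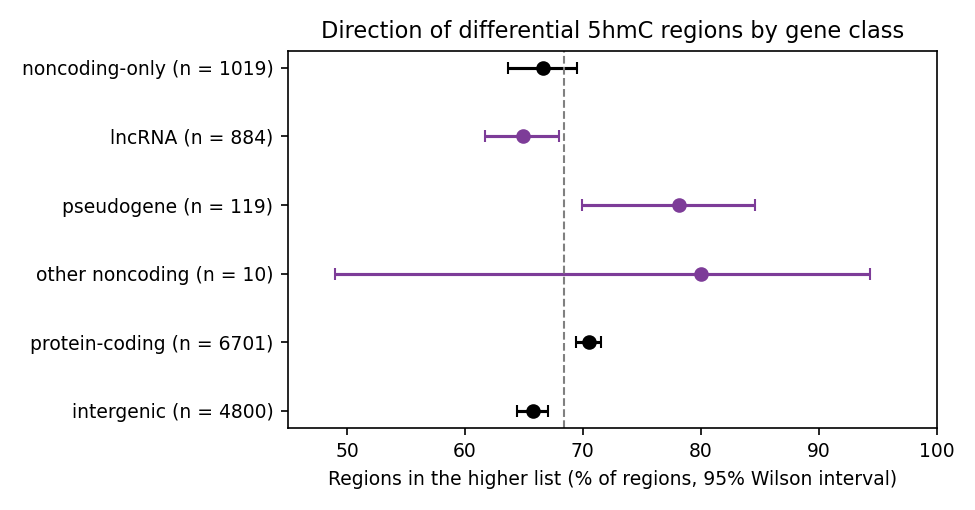
Share of differential 5hmC regions in the higher list (x axis, percent; points with 95% Wilson intervals) for noncoding-only regions, for their kinds and for regions in protein-coding genes and between genes (y axis). The dashed line marks the 68.4% of all autosomal regions; pseudogene regions lie above it at 78.2% and lncRNA regions below it at 64.9%.

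Regions in protein-coding genes and between genes gave 2 further contrasts. In protein-coding genes 70.5% of regions were higher (4724 of 6701, 69.4 to 71.6%), and the odds ratio of noncoding-only against protein-coding regions was 0.836 (0.725 to 0.965, two-sided Fisher's exact test, p = 0.0126, adjusted p = 0.0190). Of 8 alternative settings, 3 kept an adjusted p below 0.05. With 1 region kept per gene and list the ratio was 1.00 (adjusted p = 1, Fisher's exact test), and with protein-coding spans extended by 10 kb it was also 1.00 (adjusted p = 1). Keeping 1 region per gene and list drops repeat regions, so part of that move is built in. Protein-coding regions fell from 4724 to 3150 higher and from 1977 to 1675 lower. Noncoding-only regions fell from 679 to 612 higher and from 340 to 325 lower. Between genes 65.8% were higher (3156 of 4800, 64.4 to 67.1%), with an odds ratio of 1.04 (0.900 to 1.20, Fisher's exact test, adjusted p = 0.611). That interval leaves room for a difference in either direction.

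**Figure D2:**
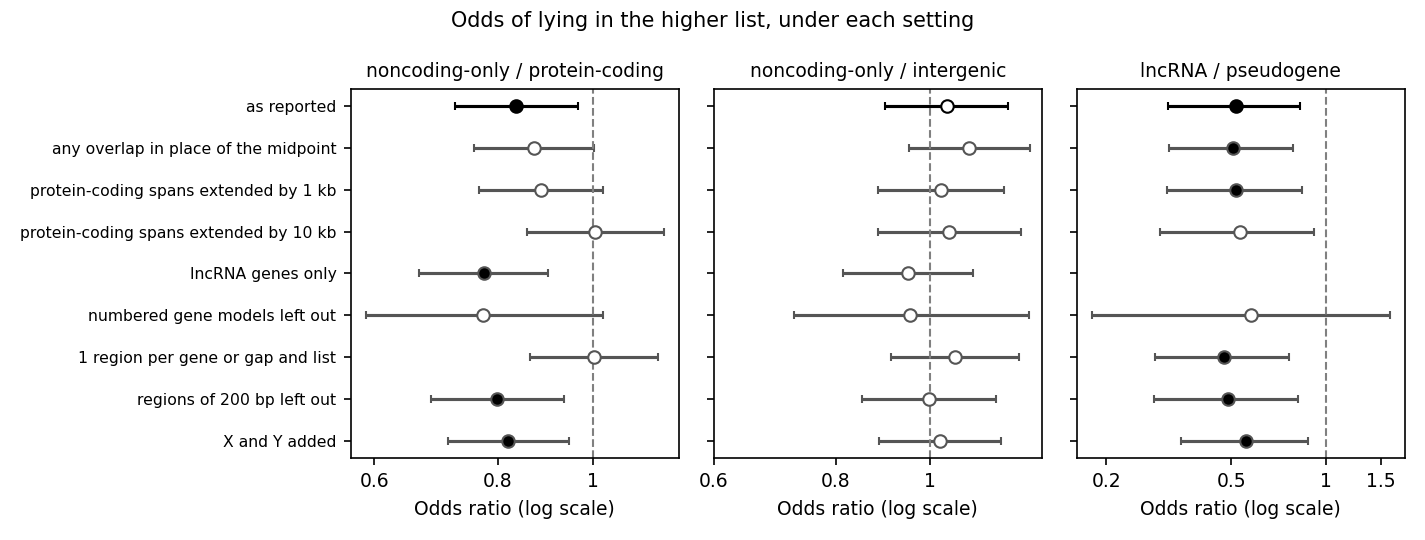
Odds ratio of lying in the higher list (x axis, log scale, with 95% intervals) for 3 pairs of region classes, under the reported setting and 8 alternatives (y axis); filled points have an adjusted p below 0.05. The lncRNA and pseudogene contrast stays below 1 in every setting run, while the contrast with protein-coding genes reaches 1.00 in 2 of them.

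Regions of 500 bp or more were more often higher than narrower ones. Of noncoding-only regions, 59.9% were higher at widths from 200 to under 500 bp (336 of 561), 73.7% from 500 to under 1000 bp (227 of 308) and 77.3% at 1000 bp or more (116 of 150). Within the narrowest class, regions of exactly 200 bp went against this order, with 67.8% higher (101 of 149) against 57.0% of the others (235 of 412). In protein-coding genes 60.9%, 77.0% and 84.6% of regions were higher in the same width classes. Of protein-coding regions 22.4% were 1000 bp wide or more, against 14.7% of noncoding-only regions. The part that width plays in the contrast of these groups was not tested. Pseudogene regions stood above lncRNA regions in each width class, at 70.3% against 58.0% in the narrowest (52 of 74 and 278 of 479), 93.5% against 71.2% in the middle (29 of 31 and 193 of 271) and 85.7% against 76.9% in the widest (12 of 14 and 103 of 134). Gene length moved with the kind of gene too, since 59.7% of pseudogene regions but 16.5% of lncRNA regions lay in genes of up to 10 kb. In genes of that length 81.7% of pseudogene regions (58 of 71) and 63.0% of lncRNA regions (92 of 146) were higher. In longer genes the shares were 72.9% (35 of 48) and 65.3% (482 of 738). The part that gene length plays in the difference was not tested beyond these values.

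**Figure D3:**
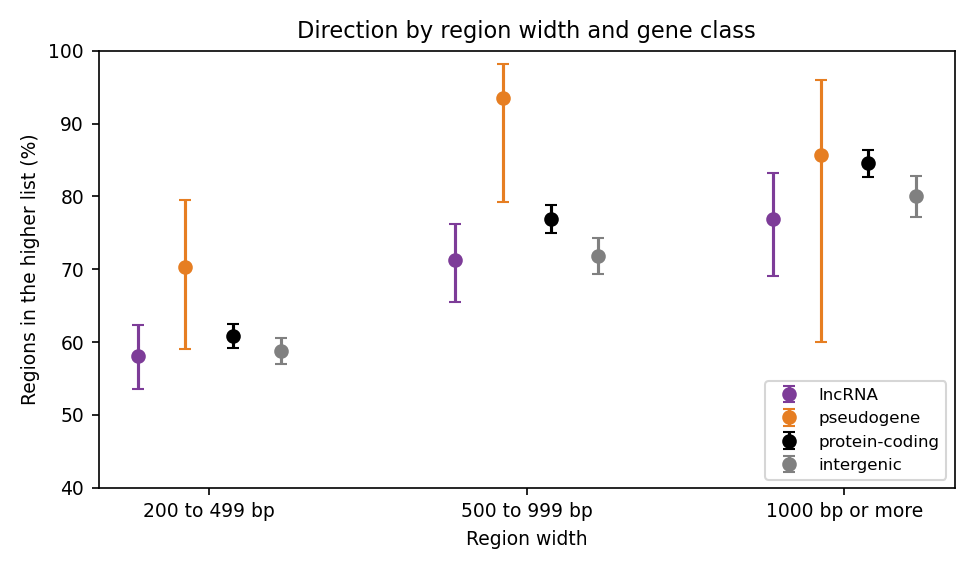
Share of regions in the higher list (y axis, percent, with 95% Wilson intervals) by region width (x axis) for lncRNA, pseudogene, protein-coding and intergenic regions. The share rises from the narrowest to the middle width class in all 4 groups, and the pseudogene point is the highest in each width class, with wide intervals.

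The median width was 507 bp for higher noncoding-only regions (exact binomial 95% interval of the median 463 to 550 bp, interquartile range 235.5 to 843.5 bp, 679 regions). It was 337.5 bp for lower ones (307 to 386 bp, interquartile range 229 to 614.75 bp, 340 regions). Among the other autosomal regions the medians were 546 bp (531 to 560 bp) and 318 bp (309 to 331 bp). The narrowest width in the lists, 200 bp, was held by 101 of the 679 higher regions (14.9%) and by 48 of the 340 lower regions (14.1%). Among other autosomal regions these shares were 13.7% and 16.8%. At the other end, 34 higher (5.01%) and 4 lower (1.18%) noncoding-only regions were 2 kb wide or more, against 7.03% and 1.41% of the other autosomal regions.

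**Figure D4:**
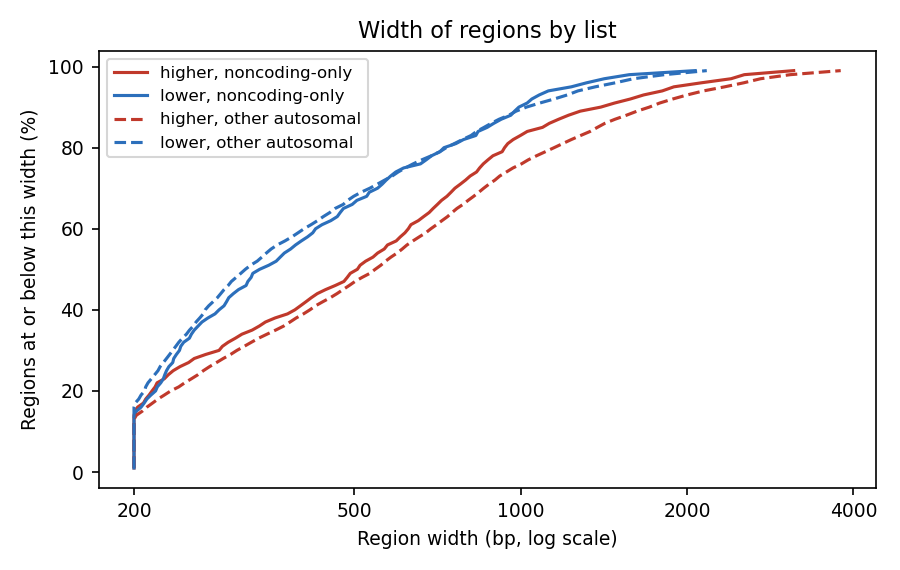
Percent of regions (y axis) at or below each width (x axis, bp, log scale) for higher and lower regions, noncoding-only (solid) and other autosomal (dashed), drawn from the 1st to the 99th percentile. In noncoding genes the curves coincide at 200 bp up to the 13th percentile and run close together up to about the 25th, and the higher curve then lies to the right at the medians of 507 and 337.5 bp.

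Noncoding-only sequence covered 8.38% of the annotated autosomal span (204.6 Mb) and held 8.14% of the autosomal regions. It held 3.32 higher and 1.66 lower regions per Mb. Protein-coding spans held more, 4.80 higher and 2.01 lower per Mb, and sequence between genes held less, 2.52 and 1.31 per Mb. LncRNA sequence alone had 3.38 higher and 1.83 lower regions per Mb, and pseudogene sequence 4.03 and 1.13 per Mb. These densities are descriptions of the lists, and which parts of the genome the authors tested is unknown. By chromosome, the share of higher regions among noncoding-only regions ran from 57.1% on chromosome 12 (24 of 42) to 78.0% on chromosome 16 (32 of 41). Over all regions of these chromosomes the shares were 63.5% and 68.2%.

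Of 26377 autosomal noncoding genes, 943 held a noncoding-only region (3.58%). These were 815 of 12408 lncRNA genes (6.57%), 119 of 9496 pseudogenes (1.25%), 1 of 3853 small RNA genes and 8 of 620 other loci. Genes with a region were long: the median span was 28195 bp for lncRNA genes with a region against 8393.5 bp for all lncRNA genes, and 3350 bp against 914 bp for pseudogenes. A longer span catches more midpoints by length alone, so a longer median is built into this choice of genes. A single region was found in 853 genes, 2 regions in 69 genes and 3 or more in 21 genes. Of the 90 genes with several regions, 42 held higher regions alone, 10 held lower regions alone and 38 held both. Since 66.6% of all noncoding-only regions were higher, each of these outcomes also occurs where regions in a gene are independent. The numbers expected in that case were not computed, so the counts are no result about these genes.

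The lncRNA gene with most regions was Gm15270 (gene ID 102638890, chromosome 10, 24331688 to 24595803, minus strand, 264 kb), with 7 higher regions and 0 lower. From its lower-coordinate end, these regions were 959, 1204, 418, 200, 707, 1562 and 215 bp wide. They lay along the whole gene, from 256199 to 2706 bp downstream of the nearest annotated start, and the region nearest that start was 2238 bp from the span of Ccn2, the gene for connective tissue growth factor. The Ccn2 span overlaps that of Gm15270, and no lower region lay in Gm15270.

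Another 5 loci held 4 regions each. Long genes can hold more regions by length alone. Per 100 kb the counts were 2.15 in Gm26843, 1.38 in 1700123O12Rik, 1.18 in 4930500H12Rik, 0.674 in 5730522E02Rik and 0.223 in Tcra. Per Mb, a longer unit than the 100 kb used for these loci, lncRNA sequence outside protein-coding spans held 3.38 higher and 1.83 lower regions. The figures in the 2 units cannot be read against each other directly, and the loci were picked for their counts. In 5730522E02Rik (chromosome 11, 25616846 to 26210576, 594 kb) all 4 were higher, with widths of 362, 970, 2105 and 1506 bp. The 4 in 4930500H12Rik (chromosome 16, 73072346 to 73410430), a gene 24855 bp from Robo1, which encodes an axon guidance receptor, were also all higher and were 749, 711, 219 and 642 bp wide. So were the 4 in Gm26843 (chromosome 8, 93565985 to 93751706), at 361, 1010, 930 and 235 bp. In 1700123O12Rik (chromosome 4, 10508031 to 10797802) 3 higher regions of 406, 375 and 684 bp flanked 1 lower region of 200 bp, with the lower one between the second and the third. The Tcra locus, which encodes the T cell receptor alpha chain and carries the biotype "other" in RefSeq, is thus in this class by its annotation and is no noncoding RNA gene. It spans 1796 kb and held 3 higher regions (200, 200 and 878 bp) and 1 lower region of 592 bp; the second 200 bp region also lay in the lncRNA gene Gm30392.

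**Figure D5:**
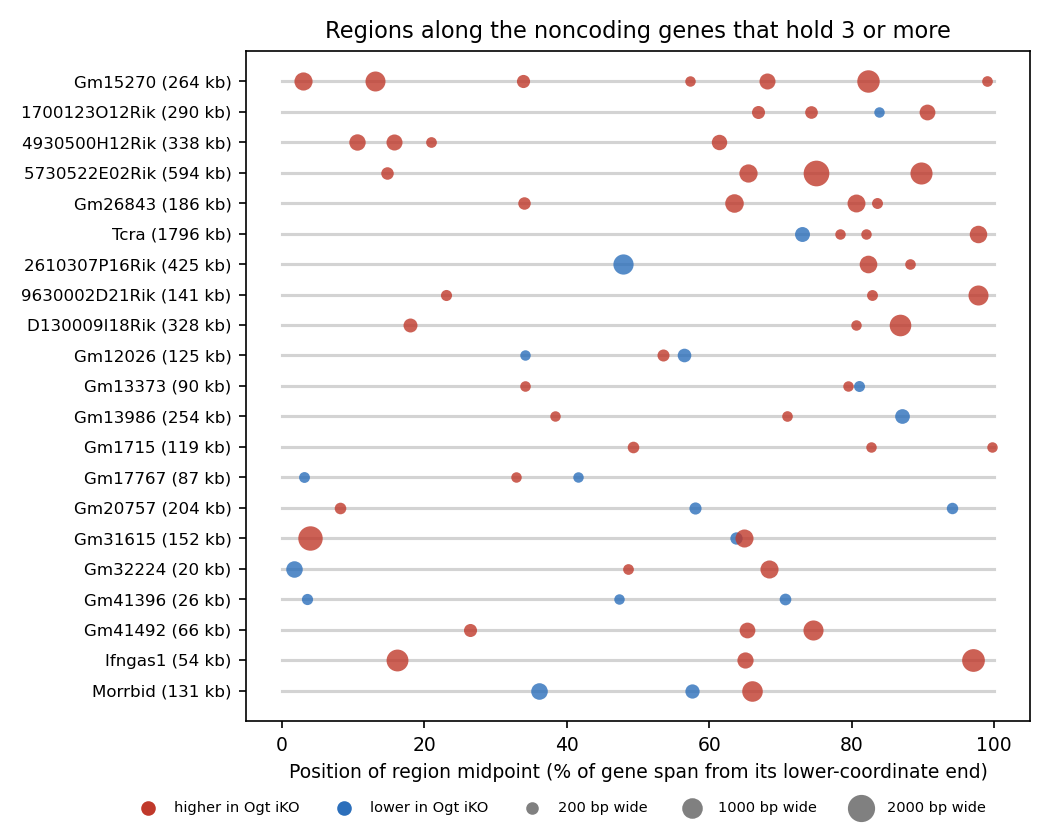
Position of each noncoding-only region along the 21 genes that hold 3 or more (x axis, percent of the gene span from its lower-coordinate end; y axis, gene with its length). Red points are higher and blue points lower regions, and point size follows width; Gm15270 holds 7 higher regions along its whole span and Gm41396 holds 3 lower ones.

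The other 15 genes held 3 regions each, from 0.705 per 100 kb in 2610307P16Rik to 15.0 in Gm32224. All 3 were higher in 9630002D21Rik, D130009I18Rik, Gm1715, Gm41492 and Ifngas1, and all 3 were lower in Gm41396. Ifngas1, the antisense lncRNA gene beside the interferon gamma gene Ifng (chromosome 10, 118502035 to 118556525), had wide higher regions of 1474, 729 and 1608 bp. The widest of them lay 1586 bp downstream of the annotated start of Ifngas1. Gm41492 (chromosome 16, 91134476 to 91200552) had higher regions of 410, 679 and 1215 bp, and the nearest protein-coding gene to the widest was Olig2, a transcription factor of oligodendrocytes and motor neurons, at 41150 bp. Gm41396 (chromosome 15, 98917969 to 98943671) had narrow lower regions of 253, 200 and 294 bp, which lay 646 bp from Lmbr1l and 1184 and 1578 bp from the alpha-tubulin gene Tuba1b.

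Both directions met in the remaining 9 of these genes. Morrbid (chromosome 2, 128298663 to 128429351), a lncRNA known to act on the neighbouring Bcl2l11 gene in myeloid cells, held lower regions of 774 and 523 bp and a higher region of 1282 bp. The latter lay 10141 bp from the nearer lower region. Gm32224 (chromosome 14, 25128019 to 25148060) had a lower region of 765 bp over its start and higher regions of 219 and 950 bp further into the gene. In Gm31615 a lower region of 347 bp and a higher region of 948 bp had 1057 bp between them, and a second higher region of 1881 bp lay far from both. In Gm13373 higher and lower regions of 200 and 238 bp had 1171 bp between them. In 2610307P16Rik, whose nearest protein-coding gene is Sox4, the lower region was the widest, at 1233 bp against 895 and 209 bp for the higher ones. Gm13986 and Gm31615 each had 2 higher and 1 lower region, as did Gm13373, Gm32224 and 2610307P16Rik, while Gm12026, Gm17767, Gm20757 and Morrbid had 1 higher and 2 lower.

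The widest higher noncoding-only region spanned 5411 bp at chromosome 13, 44007945 to 44013355, across the lower-coordinate end of the lncRNA gene Gm33489. It was followed by 3871 bp in Gm38413 (chromosome 5, 99745464 to 99749334), 3795 bp in Gm31494 (chromosome 16, 49577125 to 49580919) and 3765 bp in Gm41549 (chromosome 17, 24868968 to 24872732). The next, of 3495 bp, covered the whole pseudogene Gm21050 (chromosome 16, 56335586 to 56337378). Among lower regions the widest was one of 3982 bp in the lncRNA gene Banf2os (chromosome 2, 144160358 to 144164339), which also held a higher region of 738 bp. Then came 2440 bp in Gm26685 (chromosome 1, 164503960 to 164506399), 2325 bp in Gm33987 (chromosome 3, 121852094 to 121854418), 2262 bp in Gm46246 and 1770 bp in Gm10000. The region in Gm33987 covered 57.5% of the gene, and that in Gm10000 lay 38248 bp from Gsc, which encodes the homeodomain protein goosecoid.

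The share of noncoding genes with known roles that held such a region was near that of lncRNA genes at large, so it is no result about these genes. Of 86 genes matched from 4 lists (9 imprinted, 41 of pluripotency and stem cells, 19 nuclear or host RNAs and 17 developmental antisense or enhancer RNAs), 5 (5.81%) held 7 noncoding-only regions, beside 6.57% of all lncRNA genes and 3.58% of all noncoding genes. The matched genes are not all lncRNA genes. Those for microRNAs, such as Mir290a and Mir302a, overlap the protein-coding spans of Nlrp12 or Larp7, where no noncoding-only region could be counted. Mir100hg, the host gene of a microRNA cluster (chromosome 9, 41376526 to 41615185), held 2 higher regions of 211 and 390 bp. Sox2ot, which overlaps the pluripotency gene Sox2, held 1 higher region of 219 bp, 62008 bp from Sox2. Pantr1, beside the neural transcription factor gene Pou3f3, held 1 higher region of 215 bp. Otx2os1, next to the homeobox gene Otx2, held a higher region of 236 bp and a lower one of 200 bp, and Wt1os, next to Wt1, held 1 lower region of 254 bp. All 7 were narrower than the 507 bp median of higher regions. None of the 9 imprinted genes held a noncoding-only region, and 6 of them overlap a protein-coding span, and no region in that overlap could be counted; for Snhg14, and for the host gene Dleu2, the 1 region in the span lay where a protein-coding gene lies too. Absence from both lists does not show that 5hmC in a gene stayed the same.

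Most pseudogene regions covered a small part of the pseudogene, with a median of 10.1% of its length (11.9% for higher and 3.81% for lower regions). Of the 119, 26 covered 50% or more of a pseudogene, 23 of them higher and 3 lower, and of the other 93, 70 were higher and 23 lower. Those that covered the whole pseudogene were Gm21050, Gm14162 (a 1700 bp higher region) and Rpl31-ps1 (1010 bp, higher). Rpl31-ps1, a copy of a ribosomal protein gene, and Gm14162 are named here after their values were seen, as are Rpsa-ps1 (928 bp, higher, 90.3% of the pseudogene), Rbmx2-ps (1208 bp, higher, 59.4%) and Npm3-ps1 (873 bp, lower, 89.4%). Reads from a pseudogene and from its parent gene or other copies can be hard to tell apart, and how the authors assigned such reads is not given in the sources used here. The direction of these regions is therefore uncertain as to locus. The pseudogene with most regions was Gm12026 (chromosome 11, 19260180 to 19384740), with lower regions of 200 and 462 bp and a higher region of 322 bp between them.

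Small RNA genes were nearly absent. The single midpoint was in the small nucleolar RNA gene Gm22830 (chromosome 9, 85772351 to 85772480), inside a higher region of 478 bp that covered the whole gene. Noncoding-only regions overlapped 2 more small RNA genes. A higher region of 610 bp in the lncRNA gene Gm36684 contained the small nuclear RNA gene Gm26500, and a higher region of 2547 bp in Gm33742 (chromosome 11, 86851997 to 86854543) contained the microRNA gene Gm51288. The mature microRNAs of Gm51288 are shown because this was the 1 microRNA gene overlapped by a noncoding-only region; they are printed 5′ to 3′ from RefSeq (GRCm38.p6), with the seed (bases 2 to 8) in capitals, and their seeds differ.
mmu-miR-12182-3p (chr11:86852604-86852625, - strand): uAAUUAGGcucuggaucuguga
mmu-miR-12182-5p (chr11:86852636-86852657, - strand): aCAGCGCCagcugccuaauuga

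Other noncoding loci alone held 10 regions, 8 higher and 2 lower. Besides 3 of the Tcra regions, the immunoglobulin kappa locus Igk held 1 lower region of 226 bp. The remaining 6 loci were of the biotype miscellaneous RNA, with 1 higher region each; the widest, of 2025 bp, was in Vis1 (chromosome 2, 45238980 to 45282913), 121983 bp from Zeb2.

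Regions lay along the body of lncRNA genes from end to end. For the 707 lncRNA regions in a gene with a known start, the median position was 47.9% of the way from the 5′ end of the gene. To the nearest start of the same gene, the median distance was 11183 bp over the 459 higher regions and 9089 bp over the 248 lower ones. Within 1 kb of a start lay 31 higher (6.75%) and 25 lower (10.1%) of these regions. Overlap with a promoter window of the same gene went the other way, with 19 higher (4.14%) and 6 lower (2.42%) regions. Neither difference was tested. Starts came from the RefSeq promoter table, in which 307 of the 943 genes with a region had no entry.

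The median distance from the edge of a region to the nearest protein-coding span was 34753 bp for the 340 lower regions (exact binomial 95% interval of the median 26873 to 45605 bp) and 49765 bp for the 679 higher regions (40779 to 57247 bp). These intervals overlap, and the difference was not tested. At most 1 kb from a protein-coding span lay 16 lower (4.71%) and 17 higher (2.50%) regions. More than 100 kb away lay 85 lower (25%) and 210 higher (30.9%) regions. Among pseudogene regions the order was the other way, with medians of 40002 bp for 26 lower and 29644 bp for 93 higher regions.

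Another differential region of either list lay within 10 kb of 107 noncoding-only regions (10.5%). For 72 higher regions with such a neighbour, the nearest one was higher in 48 and lower in 24. For the 35 lower regions it was higher in 25 and lower in 10. Over all autosomal regions 68.4% were higher, and these counts were not tested against that share. How many other autosomal regions have such a neighbour was not counted. Within single noncoding genes, 118 pairs of successive noncoding-only regions were found, of which 65 were both higher, 13 both lower and 40 of opposite direction. Of the 29 pairs with 10 kb or less between them, 13 were of opposite direction, against 27 of the 89 pairs further apart. This difference was not tested. With 66.6% of noncoding-only regions higher, pairs of opposite direction also arise where neighbours are independent, and their expected number was not computed.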

How the data were processed

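CMS-IP and input libraries were made with spike-ins from genomic DNA of sorted cells, per the labels' protocols. The submitters' processing notes name Bismark, MACS2 and the mm10 build. The differential test, its threshold, the use of inputs and spike-ins and the pooling of replicates are not given in the sources used here. The values used are the starts and ends of regions in 2 lists that the authors deposited, with no depth, score or sample value. Coordinates are printed 1-based, with the deposited starts read as 0-based.

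RefSeq gene spans and promoter windows (GRCm38.p6) were used; of 49997 genes, 47042 are autosomal, 20665 of them protein-coding. The promoter table is not complete, and promoter windows on chromosome 18 were not analysed here. A region belonged to the genes that held its midpoint. Direction was compared by two-sided Fisher's exact tests, adjusted over 3 contrasts, and shares have 95% Wilson intervals. Noncoding genes are named if they held 3 or more regions or one of the 5 widest of a list, if they are small RNA genes touched by a region, or if they hold a region and are in 1 of 4 lists of known noncoding RNAs (8 list symbols had no match); others are marked. The regions, lists and tests were chosen with earlier results of these data known. Alternatives are listed in the closing section. The procedures were tested on simulated data. Python 3.11.15, numpy 2.4.6, scipy 1.17.1, pandas 2.3.3 and matplotlib 3.10.9 were used.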

Additional observations from a re-analysis of the deposited data

How the results depend on the processing

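Of 55 values recomputed for 7 results under 8 settings, 41 did not change the call, or moved a value by no more than its interval or a count by no more than 1.5 times. The odds ratio of noncoding-only against protein-coding regions (Fisher's exact test) was 0.870 with any overlap in place of the midpoint (adjusted p = 0.0745), 0.885 with protein-coding spans extended by 1 kb (0.137), 1.00 with spans extended by 10 kb, 0.774 with numbered gene models left out (0.192) and 1.00 with 1 region per gene or gap and list. By Fisher's exact test, the odds ratio of lncRNA against pseudogene regions was 0.532 with spans extended by 10 kb (adjusted p = 0.0511) and 0.577 with numbered models left out (0.552), where fewer regions are tested. The odds ratio of noncoding-only against intergenic regions fell below 1 with lncRNA genes only (0.949), numbered models left out (0.955) and regions of 200 bp left out (0.997), past the threshold in none of 8 settings. With numbered models left out, 245 noncoding-only regions were counted and the median width of the higher ones among them was 457 bp. Leaving out regions of 200 bp raised the median widths of higher and lower regions to 601 and 402 bp by construction. Keeping 1 region per gene or gap and list drops repeat regions, so part of its effect on the odds ratios is built in too. For the other changes the cause was not tested. No paired analysis was possible because the lists hold no values per sample, and replicates could not be left out for the same reason. The unknown depth limits every statement to the regions listed.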

Other observations

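LncRNA genes with an opposite-strand symbol (ending in "os", with or without a number after it) held more lower than higher noncoding-only regions. Parts of these genes that overlap a protein-coding span are left out of the count. The spans of Brip1os and Banf2os held 3 regions each, of which 1 and 2 were counted. Some of the genes overlap no protein-coding gene, such as Kif16bos, 1356 bp from Kif16b. There were 14 such genes with 16 noncoding-only regions, 6 higher and 10 lower, so 37.5% were higher, against 64.9% of all lncRNA regions. Lower regions were found in Brip1os (305 bp), Junos (200 bp), Kif16bos (329 bp), Map2k3os (245 bp), Prox1os (489 bp), Slc36a1os (1080 bp), Sp3os (240 bp) and Wt1os (254 bp). Higher regions were found in Atad3aos (513 bp), Dgkeos (401 bp), Hectd2os (200 bp) and Tbx3os1 (336 bp), and Banf2os and Otx2os1 held 1 of each. Jun, Prox1, Sp3, Wt1, Tbx3 and Otx2 encode transcription factors. Antisense genes with other kinds of symbol, such as Ifngas1 with its 3 higher regions, are not counted in this group of 14 genes. The group was chosen after its values were seen and was not tested.

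Another 4 noncoding genes, whose nearest protein-coding gene encodes a developmental transcription factor, were chosen in the same way. Higher regions lay in Pantr2 (200 bp, 6779 bp from Pou3f3), Plut (782 bp, 7630 bp from the pancreatic regulator Pdx1), Crnde (307 bp, 12986 bp from Irx5) and BC006965 (562 bp, 75482 bp from Sox9). The last distance exceeds the median of 49765 bp for all higher regions. Genes in a like position also held lower regions, 2 in Gm10000 (nearest Gsc) and 1 each in Prox1os and Wt1os. The 4 picks therefore show no common direction of such genes.

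Of the 73 regions on X, 14 were noncoding-only, 3 higher and 11 lower, beside 18 higher and 55 lower for all regions on X, these included.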
